A study of Mus musculus with 8 samples.

Results

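The heat shock chaperones described here are 10 genes whose proteins fold, hold or refold other proteins: Hspa1a, Hspa1b, Dnajb1, Dnajb4, Hsph1 and Hsp90aa1, treated here as the stress-inducible members, and Hspa8, Hsp90ab1, Hspd1 and Hspe1, treated as the constitutive members. They were found by gene name, out of 37063 distinct names, among the non-control probes of 8 one-colour microarrays. The array held 25 probes for them out of 56587 usable probes, 15 for the 6 inducible genes and 10 for the 4 constitutive genes. Of these, 23 (13 inducible and 10 constitutive) cleared the scanner's background limit on both arrays of some group and were tested, among 32039 such probes. The 2 that were left out were a Dnajb4 probe, well above background on 3 arrays, and an Hsp90aa1 probe, well above background on 0 arrays.

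The samples were CD4+ T cells of C57BL/6 mice, 2 arrays in each of 4 groups. MCA-OVA-bearing mice carried MCA205, a fibrosarcoma made to express ovalbumin (OVA), and were given an antibody against the interleukin-6 receptor (anti-IL-6R, replicates 7 and 8) or a control antibody (replicates 3 and 4). Mice without a tumour were given anti-IL-6R (replicates 5 and 6) or the control antibody (replicates 1 and 2). All 4 groups had received OVA-specific T cell receptor transgenic CD4+ T cells and dendritic cells loaded with OVA peptide, and CD4+ T cells were taken on day 4, so every group was immunised and may hold host beside transferred cells. The study asked what IL-6 does to Th1 priming in mice with tumours. Purity, antibody dose, mice per sample and the arrays that share one of the stated repeat experiments were not found in the labels, so the p-values cover only array-to-array spread, which may be partly technical.

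Hsp70 proteins such as those of Hspa1a and Hspa1b bind exposed hydrophobic stretches of unfolded proteins in an ATP-driven cycle. Hsp40 proteins (Dnajb1, Dnajb4) deliver the client and start ATP hydrolysis, and Hsp110 (Hsph1) exchanges the nucleotide. When unfolded protein accumulates, the transcription factor Hsf1 forms trimers and binds heat shock elements, inverted repeats of the unit GAA, in front of the inducible genes. The constitutive relatives are made in unstressed cells.

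On each array 53.1% to 59.8% of probes were well above background, and arrays of a group correlated with r of 0.992 to 0.993. All lay on 1 slide in 1 scan, with anti-IL-6R arrays in one slide column and control arrays in the other and tumour-bearing and tumour-free arrays in different rows, so slide position and group cannot be told apart. All 9 pan-T-cell markers were well above background on every array. Their summed scaled signal was 1046 to 1053 in tumour-bearing against 866 to 973 in tumour-free control samples, with 1 called higher. With anti-IL-6R it was 809 to 908 in tumour-bearing against 928 to 988 in tumour-free samples. In tumour-bearing mice all 9 had a log2 difference below 0 between anti-IL-6R and control antibody, and 0 were called. Markers of other cells moved with the groups too. The summed scaled signal of 10 neutrophil markers was 122 to 130 in tumour-bearing against 34.4 to 54.9 in tumour-free control samples, and 36.3 to 54.6 in tumour-bearing against 38.8 to 155 in tumour-free samples with anti-IL-6R. That of 10 erythroid markers was 32.1 to 67.7 in tumour-bearing against 7.30 to 10.8 in tumour-free control samples, and 14.5 to 19.2 in tumour-bearing against 13.8 to 17.4 in tumour-free samples with anti-IL-6R. That of 10 B cell markers was 24.1 to 34.4 in tumour-bearing against 43.6 to 58.2 in tumour-free control samples, and 45.0 to 48.9 in tumour-bearing against 47.3 to 48.0 in tumour-free samples with anti-IL-6R. In the tumour comparison with control antibody 6, 8 and 0 of these were called higher and 0, 0 and 5 lower. Of all tested probes 3.41% were called higher and 1.89% lower in that comparison. The sum of 5 plasma cell markers was 40.7 to 44.1 in tumour-bearing against 21.5 to 22.7 in tumour-free control samples, with 4 called higher. That of 5 NK cell markers was 7.37 to 7.68 in tumour-bearing against 10.7 to 12.0 in tumour-free control samples, with 2 called lower and 1 higher, and that of 4 platelet markers was 1.15 to 1.52 in tumour-bearing against 1.88 to 2.05 in tumour-free control samples, with 1 called lower. The dendritic cell sum (5 markers) was 192 in both tumour-bearing against 222 to 233 in tumour-free control samples, and those of macrophage (8) and fibroblast (4) markers overlapped, at 151 to 198 and 0.299 to 0.398 in tumour-bearing against 161 to 172 and 0.330 to 0.352 in tumour-free control samples. With anti-IL-6R in tumour-bearing mice, 1.51% of all tested probes were called higher and 2.77% lower. Of the markers, 6 neutrophil, 6 erythroid and 1 plasma cell markers were called lower there. Called higher were 1 B cell, 2 NK cell, 2 platelet, 1 macrophage and 1 endothelial markers. The part of these markers in the chaperone differences was not tested.

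Hspa1a and Hspa1b lie side by side on chromosome 17 and encode nearly the same Hsp70. Their probes were compared because a shared probe sequence would make the genes indistinguishable. Neither probe was compared with the transcript of the other gene, so whether each reads only its own gene was not tested. Each probe has 60 bases. The best ungapped alignment matched 21 of 60 bases, and the longest shared run was 5 bases. The Hspa1a probe lies at chr17:35106766-35106825 (build mm9). The position given for the Hspa1b probe, chr17:35093374-35093405, is shorter than its 60 bases, and the reason was not tested. The first 30 bases of each probe, all in lower case, show how far they differ.
Hspa1a probe: agggaaactaaactgtctttcagttacttt
Hspa1b probe: taatctaagtaggttaaagatggtgtagtc

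Promoter windows from RefSeq (GRCm38.p6, 250 bases before to 50 after the transcript start) were available for 7 of the 10 genes, in 11 windows. Those of Hspa1a and Hspa1b are shown because the genes' levels moved together, that of Dnajb4 because it also passed the test, and that of Hspe1 as a constitutive gene. Each is on the strand of its gene, 5′ to 3′, with matches to the paired repeats TTCNNGAA or GAANNTTC in capitals. Both motifs read the same on either strand, and overlapping matches form 1 capital run. The windows are chr17:34972107-34972406 (minus strand) for Hspa1a, chr17:34959189-34959488 (minus) for Hspa1b, chr3:152193796-152194095 (minus) for the second start of Dnajb4 and chr1:55087898-55088197 (plus) for Hspe1.
Hspa1a promoter: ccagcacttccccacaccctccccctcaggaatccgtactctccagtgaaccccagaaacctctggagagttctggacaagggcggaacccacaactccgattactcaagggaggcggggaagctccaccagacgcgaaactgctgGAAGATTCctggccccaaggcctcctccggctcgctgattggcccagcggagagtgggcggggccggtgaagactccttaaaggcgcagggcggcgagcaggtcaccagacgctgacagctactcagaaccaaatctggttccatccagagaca
Hspa1b promoter: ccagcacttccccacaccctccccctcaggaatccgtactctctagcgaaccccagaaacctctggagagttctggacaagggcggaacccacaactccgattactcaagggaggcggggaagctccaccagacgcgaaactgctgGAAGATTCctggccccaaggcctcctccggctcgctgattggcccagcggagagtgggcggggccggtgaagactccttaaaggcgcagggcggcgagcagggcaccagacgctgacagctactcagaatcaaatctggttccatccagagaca
Dnajb4 promoter: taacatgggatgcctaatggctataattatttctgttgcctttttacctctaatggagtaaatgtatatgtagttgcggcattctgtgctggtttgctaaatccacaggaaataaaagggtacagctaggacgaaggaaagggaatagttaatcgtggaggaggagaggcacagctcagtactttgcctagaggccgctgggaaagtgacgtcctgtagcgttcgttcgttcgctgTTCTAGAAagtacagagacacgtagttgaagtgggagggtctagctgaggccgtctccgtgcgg
Hspe1 promoter: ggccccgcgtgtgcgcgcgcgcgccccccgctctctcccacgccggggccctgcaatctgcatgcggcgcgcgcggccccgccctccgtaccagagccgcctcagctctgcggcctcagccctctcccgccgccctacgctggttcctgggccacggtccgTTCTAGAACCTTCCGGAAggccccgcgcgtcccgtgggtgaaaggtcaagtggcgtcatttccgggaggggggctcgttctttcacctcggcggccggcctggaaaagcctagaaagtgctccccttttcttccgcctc

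The Hspa1a and Hspa1b windows were identical at 296 of 300 bases. Counted from 1 at the window's 5′ end, Hspa1b differed from Hspa1a by C44T, T47C, T249G and C276T. Each held 1 paired repeat, whose first base lies at -104 relative to the start. The Dnajb4 window held 1, at -14, and the window at its other start held 0. In the Hspe1 window 3 overlapping matches made a run of 18 bases; 1 of the 2 windows of Hspd1, which is read the other way from the same stretch, held the same run, and the other held 0 matches. Both windows of Hsph1 held 3 matches and both Dnajb1 windows held 0. Of 32851 promoter windows in the table, 15.06% held at least 1 such pair. A longer match of 3 units, each inverted against the next at the same spacing, was held by 0.60% of them. The runs of the constitutive genes Hspe1 and Hspd1 each held 2 such longer matches, and each Hsph1 window held 1. The windows of Hspa1a, Hspa1b, Dnajb4 and Dnajb1 held 0, so the longer match did not separate inducible from constitutive genes. A match describes these letters only, and binding was not tested.

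Hspa1a and Hspa1b were high in 1 group. On the scaled log2 scale (log2 signal minus the array's 75th percentile), Hspa1a read 2.48 and 0.90 in control-antibody cells of tumour-bearing mice, against 4.36 and 4.58 in control-antibody cells of tumour-free mice. It read 1.91 and 1.57 in anti-IL-6R cells of tumour-bearing mice and 2.10 and 1.64 in anti-IL-6R cells of tumour-free mice. The 2 tumour-free control arrays lay above all 6 others. The other 3 groups overlapped one another, and their means of 1.74 ± 0.23, 1.87 ± 0.33 and 1.69 ± 1.11 (SD, n = 2 each; tumour-bearing with anti-IL-6R, tumour-free with anti-IL-6R, tumour-bearing with control antibody) did not differ beyond their spread.

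Hspa1b was also highest in tumour-free control mice. It read 1.81 and 0.42 in tumour-bearing control mice against 3.73 and 3.97 in tumour-free control mice, and 1.21 and 0.83 in tumour-bearing against 1.69 and 1.11 in tumour-free mice given anti-IL-6R. Across the 8 arrays the Hspa1a and Hspa1b probes correlated with r = 0.996, as a description over arrays that share groups. The tumour-bearing control pair was the widest for both genes, with replicate 3 above replicate 4.

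**Figure D1:**
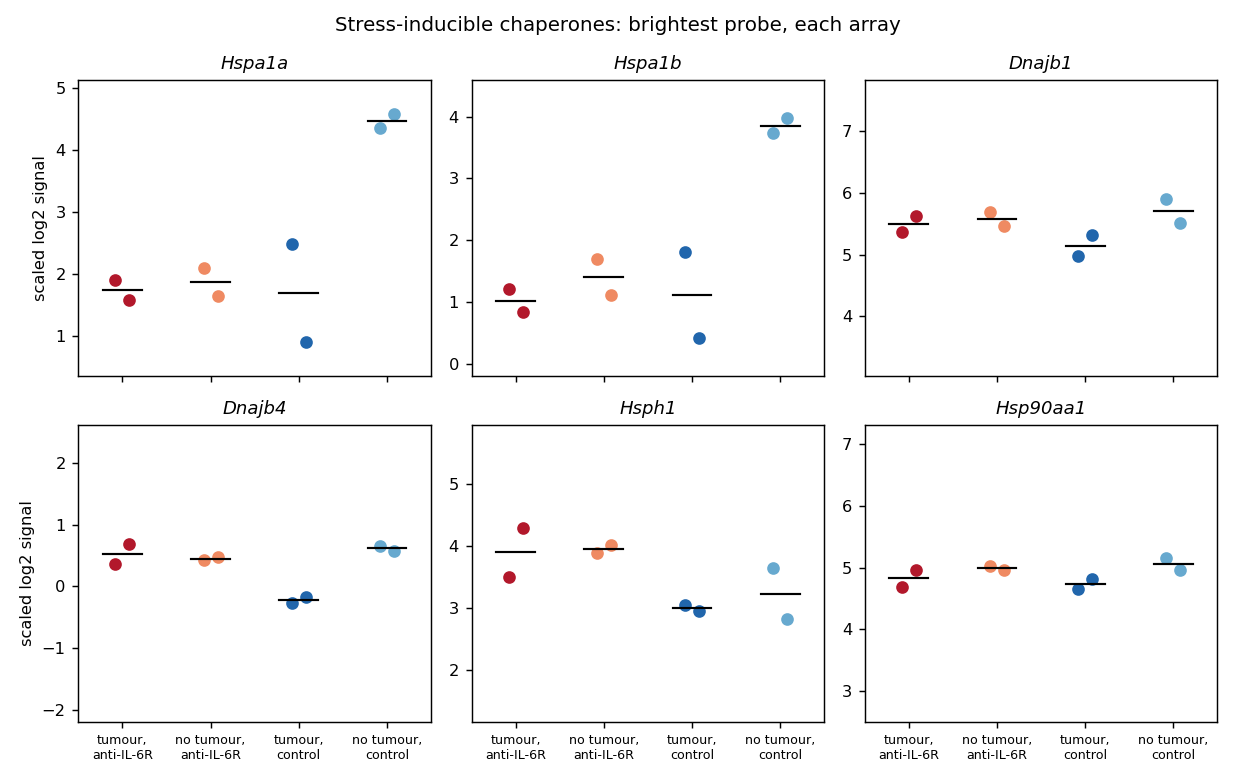
Scaled log2 signal (y axis) of the brightest probe of each stress-inducible chaperone on every array, by group; points are arrays, bars are group means of 2 arrays, and every panel spans the same number of log2 units. For Hspa1a and Hspa1b the tumour-free control arrays (3.73 to 4.58) stand above all other arrays.

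With control antibody, Hspa1a, Hspa1b and Dnajb4 were lower in tumour-bearing than in tumour-free mice, and the other inducible genes did not pass the test. Hspa1a was 6.88-fold lower (log2 difference -2.78 ± 0.42 SE, adjusted p = 0.0112 in limma with Benjamini-Hochberg adjustment over all tested probes). Hspa1b was 6.67-fold lower (log2 difference -2.74 ± 0.39, adjusted p = 0.00932). Both calls were lost without tumour-free control replicate 2, with limma adjusted p of 0.0895 for Hspa1a and 0.0780 for Hspa1b, and their log2 differences ranged from -3.57 to -2.00 and from -3.43 to -2.04 as single arrays were left out. Fewer cells that express the genes and less RNA per cell cannot be told apart in bulk samples.

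Dnajb4 encodes an Hsp40 that partners Hsp70. Its brightest probe read -0.27 and -0.17 in tumour-bearing control mice against 0.66 and 0.58 in tumour-free control mice, without overlap. It fell by 0.84 on the log2 scale (± 0.12 SE, limma adjusted p = 0.00913), and the probes ranked 2 and 3 in brightness fell by 0.73 (± 0.12, adjusted p = 0.0165) and 1.01 (± 0.16, adjusted p = 0.0133). All 3 calls were lost when tumour-bearing control replicate 3 was left out. Leaving out tumour-free control replicate 2 also ended the calls of probes 2 and 3, and leaving out tumour-bearing control replicate 4 or the filter on dim probes ended that of probe 2. Over the alternatives their adjusted p reached 0.0519, 0.0748 and 0.0882. The 2 dimmest tested Dnajb4 probes had differences of -1.08 ± 0.45 (adjusted p = 0.188) and -0.54 ± 0.23 (adjusted p = 0.210). The 5 tested probes correlated over the arrays with r of 0.344 to 0.978.

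Dnajb1, the main Hsp40 partner of inducible Hsp70, read 4.97 and 5.31 in tumour-bearing against 5.89 and 5.52 in tumour-free control mice, a log2 difference of -0.56 ± 0.16 (limma adjusted p = 0.0847; 0.0477 after quantile normalization). Hsp90aa1, the inducible cytosolic Hsp90, read 4.65 and 4.82 in tumour-bearing against 5.16 and 4.97 in tumour-free control mice, with differences of -0.33 ± 0.11 and -0.33 ± 0.13 on its 2 tested probes (adjusted p = 0.122 and 0.166). Hsph1 read 3.04 and 2.95 in tumour-bearing against 3.65 and 2.82 in tumour-free control mice, which overlap, and its 3 probes differed by -0.23 to -0.37. Its dimmest probe was well above background on only 1 array in each of 3 groups.

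Of the 13 inducible probes, 5 (Hspa1a, Hspa1b and 3 of Dnajb4) were lower past the threshold and 0 higher. Of all tested probes 1.89% were lower and 3.41% higher, 5.29% in either direction (605 and 1091 probes). This balance turned without tumour-free control replicate 1, with 1042 lower and 742 higher. The 13 inducible probes belong to 6 genes, 3 of which were called. Dnajb4 alone has 5 of the probes, so they are not separate observations. Of the 13, 11 had tumour-bearing arrays below the tumour-free arrays without overlap, against 24.6% of all tested probes. Their median log2 difference was -0.56, beside 0.01 over all tested probes. Without tumour-free control replicate 2 or tumour-bearing control replicate 3 fewer member probes were called, and so were fewer of all tested probes.

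**Figure D2:**
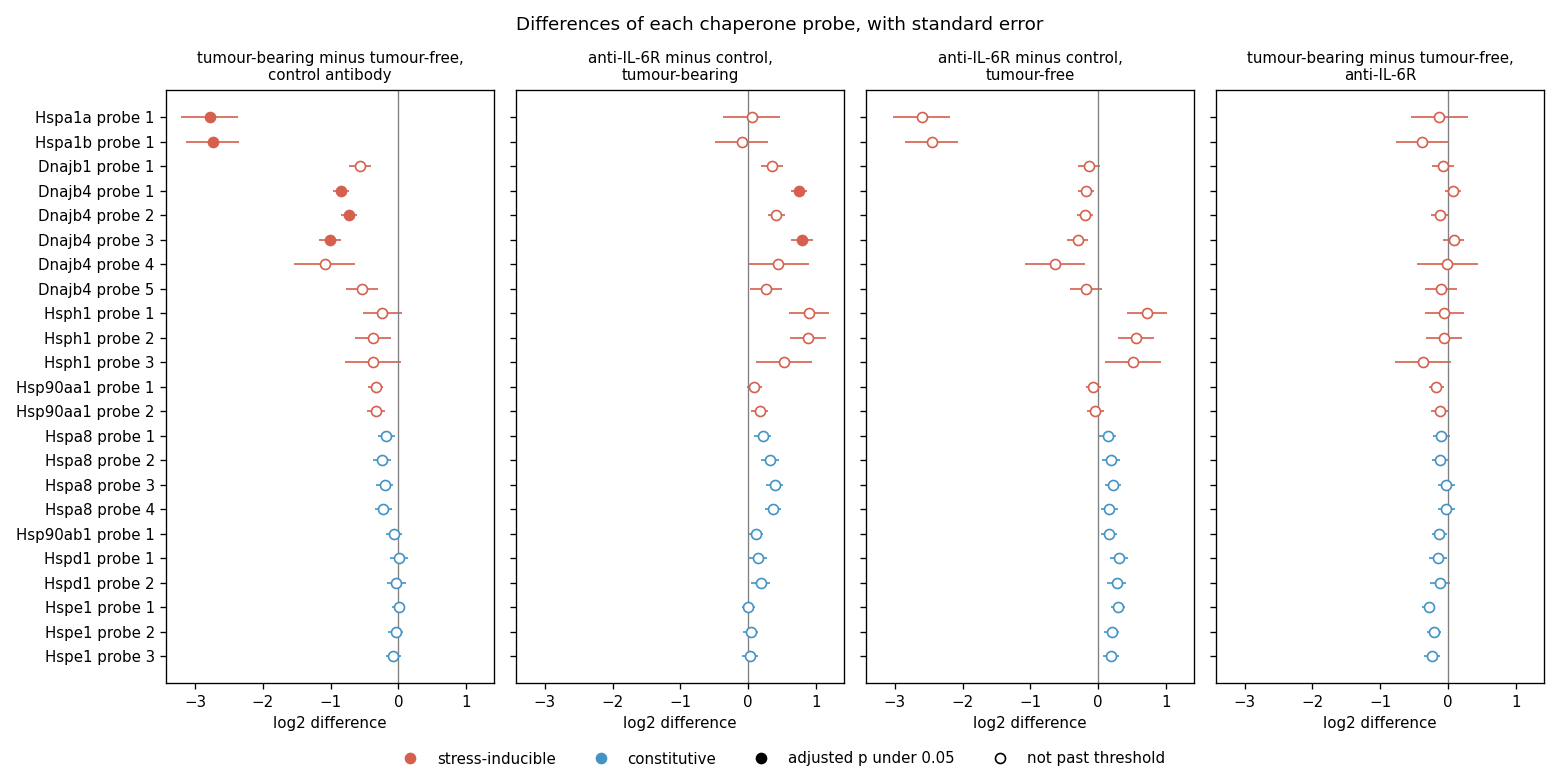
Log2 differences (x axis; points with standard errors) of the 23 tested chaperone probes in 4 comparisons, inducible above constitutive; filled points pass the adjusted threshold of 0.05. In the first panel inducible probes reach -2.78 while constitutive probes stay between -0.24 and 0.01.

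None of the constitutive members passed the test in the same comparison. Hspa8, the cognate Hsp70, read 6.63 and 6.70 in tumour-bearing against 7.05 and 6.63 in tumour-free control mice. Hsp90ab1, the constitutive Hsp90, read 7.52 and 7.47 in tumour-bearing against 7.76 and 7.36 in tumour-free control mice. Hspd1 and Hspe1 encode the mitochondrial chaperonin Hsp60 and its lid Hsp10. Hspd1 read 4.46 and 4.50 in tumour-bearing against 4.67 and 4.26 in tumour-free control mice, and Hspe1 read 4.89 and 4.93 in tumour-bearing against 5.06 and 4.75 in tumour-free control mice. The arrays of both groups overlapped on all 10 probes. Of the 10 constitutive probes, 0 were called by limma and 0 had an unadjusted p under 0.05. Among all 32039 tested probes 5.29% were called, and 7624 had an unadjusted p under 0.05. The 4 Hspa8 probes differed by -0.18 to -0.24, Hsp90ab1 by -0.07 ± 0.12, and the Hspd1 and Hspe1 probes by -0.07 to 0.01. For each of these genes tumour-free control replicate 1 was above replicate 2, and the sign of 7 of the 10 differences changed when a single array was left out, as did that of 2 Hsph1 probes.

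**Figure D3:**
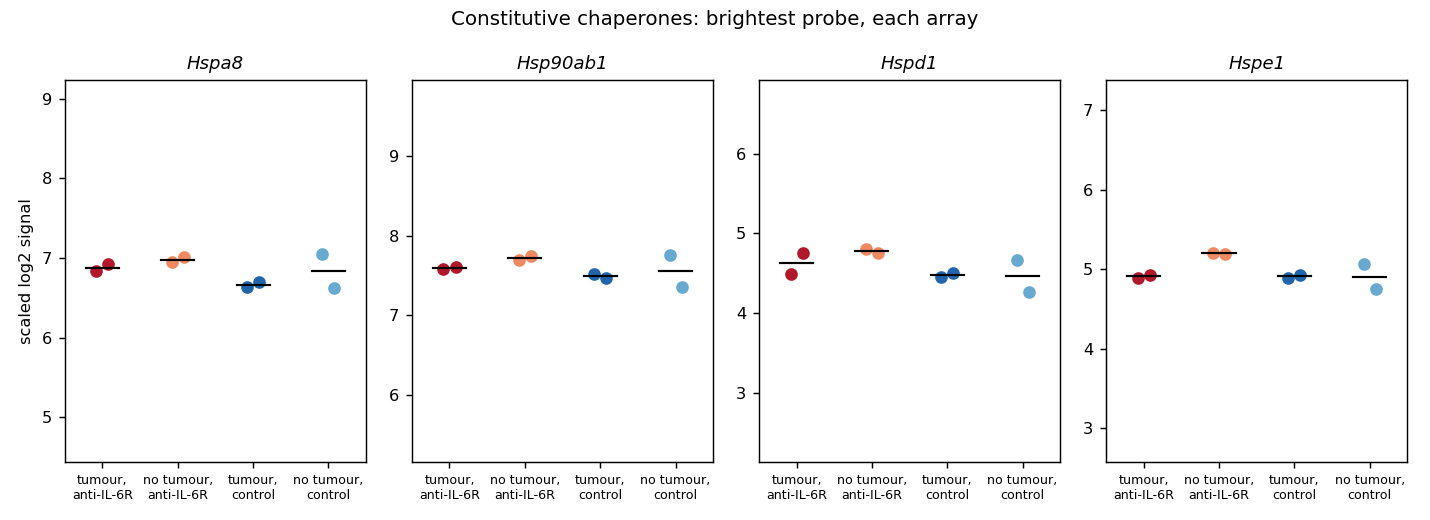
Scaled log2 signal (y axis) of the brightest probe of each constitutive chaperone on every array, by group, on the same number of log2 units as the plot of inducible genes; points are arrays and bars group means of 2 arrays. The arrays of each gene lie within 1 log2 unit, and the tumour-bearing and tumour-free control arrays overlap.

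Anti-IL-6R was compared with control antibody in tumour-bearing mice, the comparison the study's design names beside the first, with which it shares the tumour-bearing control arrays. Dnajb4 was higher with anti-IL-6R on 2 probes, and Hspa1a and Hspa1b were not called. In tumour-bearing mice the brightest Dnajb4 probe read 0.36 and 0.69 with anti-IL-6R against -0.27 and -0.17 with control antibody, a 1.68-fold difference (log2 0.75 ± 0.12, limma adjusted p = 0.0277). Its probe 3 differed by 0.79 ± 0.16 (adjusted p = 0.0391), and its probe 2 by 0.42 ± 0.12 (adjusted p = 0.0787). Both calls were lost without replicate 3, 4 or 8, without the filter on dim probes and without the variance trend, and that of probe 3 also with normexp or without tumour-free control replicate 1 or 2; their adjusted p reached 0.155 and 0.237 over the alternatives. Hspa1a differed by 0.05 ± 0.42 (adjusted p = 0.950) and Hspa1b by -0.09 ± 0.39 (adjusted p = 0.903), with overlapping arrays.

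Hsph1 read 3.50 and 4.30 with anti-IL-6R against 3.04 and 2.95 with control antibody in tumour-bearing mice. Its 2 brighter probes differed by 0.90 ± 0.29 and 0.88 ± 0.27 (limma adjusted p = 0.0987 and 0.0853), called only when anti-IL-6R replicate 7 was left out (0.0466 and 0.0367). Dnajb1 differed by 0.35 ± 0.16 (adjusted p = 0.204). The 4 Hspa8 probes differed by 0.21 to 0.39, without overlap, the largest with adjusted p = 0.0955 (0.0444 after quantile normalization). In all, 2 of 13 inducible probes were called higher and 0 of 10 constitutive probes, and 0 were called lower. Of all tested probes 1.51% were called higher and 2.77% lower, 4.28% in either direction. The balance turned when tumour-bearing control replicate 3 (146 higher and 58 lower), anti-IL-6R replicate 7 (900 and 857) or replicate 8 (18 and 6) was left out. The arrays did not overlap, with anti-IL-6R higher, for 8 inducible and 6 constitutive probes, against 25.7% of all tested probes. The inducible median was 0.42 and the constitutive median 0.17, beside -0.04 over all tested probes. The sign of the difference changed under some alternative, left-out arrays included, for 5 inducible probes (Hspa1a, Hspa1b, the 2 of Hsp90aa1 and the dimmest of Dnajb4) and 5 constitutive probes (Hsp90ab1, the 3 of Hspe1 and 1 of Hspd1). With single arrays left out, Hspa1a lay between -0.74 and 0.84. Member calls were lost without replicate 3, 4 or 8 and became more numerous without replicate 7. Calls over all tested probes fell and rose at the same settings.

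In tumour-free mice, Hspa1a was 6.07-fold and Hspa1b 5.47-fold lower with anti-IL-6R than with control antibody, without overlap, but neither passed the test (log2 difference -2.60 ± 0.42 and -2.45 ± 0.39, limma adjusted p = 0.170 each). This comparison shares the tumour-free control arrays with the first one. The unadjusted p of 0.000226 for Hspa1a and 0.00021 for Hspa1b stand beside 0.000141 and 9.62e-05 in the tumour comparison, while few probes passed overall: 10 of 32039, or 0.0312%, and 0 of the 23 members, while 2570 probes and 5 members had an unadjusted p under 0.05. Both genes were called after scaling to the array median (adjusted p = 0.0129 each) and when tumour-bearing control replicate 3 (0.0178 and 0.0236) or 4 (0.0116 and 0.0237) was left out, arrays that enter this comparison only through the shared variance.

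The other inducible genes had smaller differences. Dnajb4 read 0.43 and 0.47 with anti-IL-6R against 0.66 and 0.58 with control antibody in tumour-free mice (log2 difference -0.17 ± 0.12), and Dnajb1 differed by -0.13 ± 0.16. Hsph1 lay the other way, at 3.89 and 4.01 with anti-IL-6R against 3.65 and 2.82 with control antibody (0.72 ± 0.29, limma adjusted p = 0.613). All 10 constitutive probes lay above 0, between 0.14 and 0.31, with a median of 0.20 beside 0.02 over all tested probes. The brightest Hspe1 probe read 5.21 and 5.19 with anti-IL-6R against 5.06 and 4.75 with control antibody (0.29 ± 0.10, adjusted p = 0.568). The sign of 4 of the 10, those of 3 Hspa8 probes and Hsp90ab1, changed when a single array was left out.

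Between tumour-bearing and tumour-free mice that both received anti-IL-6R, 0 of 23 member probes were called by limma, where 0.209% of all tested probes were. An unadjusted p under 0.05 was found for 1 member and for 2384 of all 32039 tested probes. Hspa1a differed by -0.13 ± 0.42 (adjusted p = 0.915), Hspa1b by -0.38 ± 0.39 (adjusted p = 0.712) and the brightest Dnajb4 probe by 0.08 ± 0.12 (adjusted p = 0.814). The member with the unadjusted p was the brightest Hspe1 probe, at 4.89 and 4.93 in tumour-bearing against 5.21 and 5.19 in tumour-free mice (-0.29 ± 0.10, adjusted p = 0.589).

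Whether the antibody effect differed between the hosts was tested directly as the interaction. It called 0 of 23 member probes and 0.025% of all tested probes in limma, with 5 members and 7580 probes at an unadjusted p under 0.05. The antibody difference in tumour-bearing minus that in tumour-free mice was 2.65 ± 0.59 for Hspa1a (adjusted p = 0.0934), 2.36 ± 0.55 for Hspa1b (adjusted p = 0.0986) and 0.92 ± 0.17 for the brightest Dnajb4 probe (adjusted p = 0.0827). Median scaling moved Hspa1a to 0.0384 and Hspa1b to 0.0473; leaving out tumour-bearing control replicate 3 moved Hspa1a to 0.0321, and leaving out anti-IL-6R replicate 7 moved Dnajb4 to 0.0475. All 13 inducible probes lay above 0 (median 0.49), though the 3 of Hsph1 and 1 of Hsp90aa1 fell below 0 under some alternative, left-out arrays included, and 4 of 10 constitutive probes lay above 0 (median -0.07, beside -0.07 over all tested probes), 8 of the 10 changing sign under some alternative.

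Genes of the wider chaperone lists were taken from the same fit. In that fit 5.29% of all tested probes were called in the tumour comparison with control antibody, and 4.28% with anti-IL-6R in tumour-bearing mice. Each gene is given by its brightest tested probe. Of 22 tested further stress-response chaperones and co-chaperones (24 listed), 0 were higher and 1 lower in tumour-bearing than in tumour-free control mice, with a median of 0.00. The one was Hspa4l, an Hsp110 relative, at 0.51 and 0.61 in tumour-bearing against 1.15 and 1.52 in tumour-free control mice (-0.78 ± 0.15, limma adjusted p = 0.0293), lost without replicate 2, 3 or 4. With anti-IL-6R in tumour-bearing mice 1 of the 22 was higher, the Hsp40 gene Dnaja1, at 6.10 and 6.49 with anti-IL-6R against 5.36 and 5.68 with control antibody (0.78 ± 0.17, adjusted p = 0.0468), lost without replicate 3, 4, 5 or 8.

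Among 17 other cytosolic co-chaperones, Bag2, an Hsp70 cofactor, was higher in tumour-bearing control mice, at -2.26 and -2.27 against -3.19 and -3.18 in tumour-free control mice (0.92 ± 0.16, limma adjusted p = 0.0211), lost without replicate 2, 3 or 4. Of 15 endoplasmic reticulum chaperones 0 were called in either of these comparisons. In the tumour comparison 13 lay above 0 (median 0.18, beside 0.01 over all tested probes), and with anti-IL-6R in tumour-bearing mice 12 lay below 0 (median -0.17, beside -0.04). Dnajb9 had the smallest p and lay opposite to most of the list, with -0.62 ± 0.16 between tumour-bearing and tumour-free control mice (adjusted p = 0.0631) and 0.66 ± 0.16 with anti-IL-6R in tumour-bearing mice (adjusted p = 0.0559). Of 9 other mitochondrial chaperones and proteases 0 were called. Of 14 subunits of TRiC, the cytosolic chaperonin, and of prefoldin, which delivers to it, 0 were called in the tumour comparison and 1 with anti-IL-6R in tumour-bearing mice, Pfdn1 (-0.45 ± 0.09, adjusted p = 0.0437), lost without replicate 1, 2, 3, 4 or 8.

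Immediate early genes are transcription factors and signal regulators that rise soon after a stimulus. Of 21 tested, 7 were lower and 2 higher in tumour-bearing than in tumour-free control mice, with a median of -0.64. Beside them, 1.89% of all tested probes were lower and 3.41% higher. Jun read 5.22 and 5.14 in tumour-bearing against 6.01 and 6.14 in tumour-free control mice (-0.90 ± 0.11, limma adjusted p = 0.00509), and stayed past the threshold without any single array. Atf3, a stress-induced factor, read -1.79 and -2.29 in tumour-bearing against 0.32 and 0.46 in tumour-free control mice (-2.43 ± 0.41, adjusted p = 0.0170, lost without replicate 2, 3 or 4), and Klf4 differed by -1.32 ± 0.18 (adjusted p = 0.00775, lost without replicate 2). Egr2 was higher, at 3.01 and 3.23 in tumour-bearing against 2.51 and 2.27 in tumour-free control mice (0.73 ± 0.11, adjusted p = 0.0110, lost without replicate 2).

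With anti-IL-6R in tumour-bearing mice, 8 of the 21 were higher and 0 lower, with a median of 0.58. Beside them, 1.51% of all tested probes were higher and 2.77% lower. Atf3 read 0.08 and 0.76 with anti-IL-6R against -1.79 and -2.29 with control antibody (2.47 ± 0.41, limma adjusted p = 0.0288), Klf4 differed by 1.13 ± 0.18 and Jun by 0.68 ± 0.11 (adjusted p = 0.0277 each). All 3 calls were lost without replicate 3 or 8. In tumour-free mice 0 of 21 were called with anti-IL-6R, where 0.0312% of all tested probes were, and the median was -0.31. Their part in the chaperone values was not tested.

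**Figure D4:**
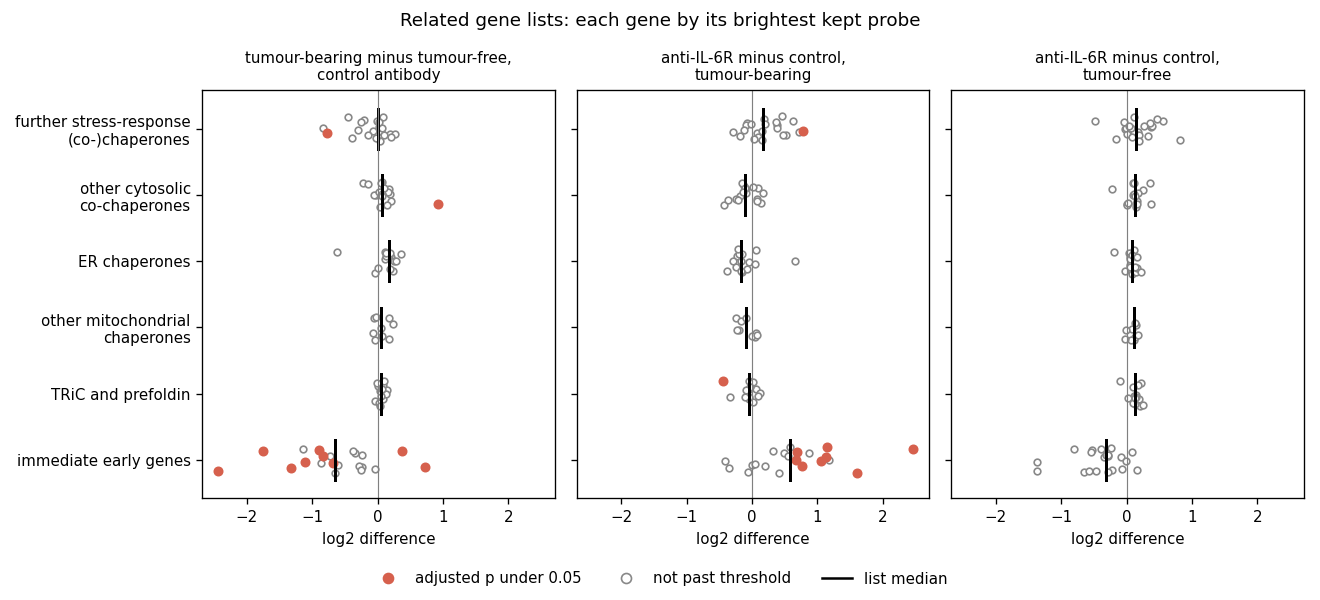
Log2 differences (x axis) of the genes of 6 related lists in 3 comparisons; points are genes by their brightest tested probe, filled where the adjusted p is under 0.05, and bars are list medians. The immediate early genes have medians of -0.64, 0.58 and -0.31.

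The 8 genes most like the mean Hspa1a and Hspa1b profile were taken from 2090 genes with a range of at least 1 log2 unit, by Pearson correlation over the 8 arrays, which share groups. Members and genes without an official-style symbol, such as those named Gm or Rik, were left out. They were Sntg2 (r = 0.963), Firre (0.959), Col19a1 (0.955), Ntng2 (0.917), Kcnv1 (0.913), Hsd17b6 (0.892), Cntn4 (0.886) and Ccdc85a (0.871). Firre, a long non-coding RNA, was well above background on all 8 arrays. It read -2.91 and -3.67 in tumour-bearing against 0.28 and 0.40 in tumour-free control mice. With anti-IL-6R it was low in both hosts, at -3.45 and -2.91 in tumour-bearing and -3.32 and -3.58 in tumour-free mice. Ntng2 was well above background on 7 arrays, and the other 6 on only 2 or 3. Those 6 passed the filter only through the tumour-free control arrays, where Hspa1a and Hspa1b were high. Their r therefore cannot be read as likeness beyond that filter. Over the 6 arrays left without the tumour-free controls, r was 0.537 for Firre and 0.404 for Ntng2; it is not given for the others, which were mostly at background there.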

How the data were processed

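Spot intensity values came from the deposited scanner files, 1 per array. The submitters' processing notes name Agilent Feature Extraction 10.10.1.1 as the software. Probe positions are in build mm9, per the file headers. A table of log2 values was also deposited, and no label or header says how it was made. Its columns equalled log2 of the processed signal minus the array's 75th percentile within a constant of 0.01 (r = 1), with column medians of -3.33 to -3.09.

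Outlier spots (60 to 95 per array) were dropped, spots of a probe averaged, and the log2 signal taken minus the array's 75th percentile over probes (a signal of 500 to 526). Probes that the software marked as well above background on the 2 arrays of any group were kept (32039). The lowest signal so called was 24.2 to 36.3, and the number of arrays limits precision. All 8 arrays were fitted as 4 group means in limma 3.58.1 (R 4.3.3) with an intensity trend (4 residual and 4.28 prior degrees of freedom). Tests were two-sided, with p-values adjusted over all kept probes by Benjamini-Hochberg and a threshold of 0.05. The fit was tested on simulated data. Tables were made with pandas 2.3.3 under Python 3.11.15, and plots with matplotlib 3.10.9. Alternatives were no filter, quantile or median scaling, normexp, 1 probe per gene, no trend, array weights, the deposited table, and each array left out.

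Members, lists and tests were chosen with earlier results of these data known. Named genes were all member probes, up to 4 called genes per list with the smallest p (or up to 2 where none passed), and the 8 genes most correlated with Hspa1a and Hspa1b. Promoters came from RefSeq.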

Additional observations from a re-analysis of the deposited data

How the results depend on the processing

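No member value changed sign in a call under any alternative. Counts of calls moved more. In the tumour comparison with control antibody, 1696 of 32039 probes and 5 of 23 member probes, from 3 genes, were called. The counts were 683 of 56587 probes without the filter, 724 without the variance trend and 905 with array weights. With 1 probe per gene, 1344 of 21537 probes and 3 of 10 members were called, the same number of member genes. With anti-IL-6R in tumour-bearing mice, 1372 probes and 2 member probes, both of Dnajb4, were called. The counts were 15 and 0 without the filter and 56 and 0 without the trend. Median scaling called 2679 probes, normexp called 1 member probe, and 1 of 10 members was called with 1 probe per gene. In tumour-free mice 10 probes were called, against 45 and 2 members with median scaling, 21 with normexp, 4 with 1 probe per gene and 4 with array weights. Between hosts given anti-IL-6R 67 were called, against 22 without the filter, 21 without the trend and 134 with median scaling. The interaction called 8, against 0 without the filter, 5 after quantile normalization, 439 and 2 members with median scaling, 13 with normexp and 20 without the trend. Median scaling put the median of all probes at -0.20, 0.05, -0.15 and -0.26 for the antibody in tumour-bearing and tumour-free mice, the hosts under anti-IL-6R and the interaction, and at 0.10 in the tumour comparison. It split calls 28 higher to 17 lower against 8 to 2 in tumour-free mice and 179 to 260 against 2 to 6 for the interaction; quantile normalization split the interaction 0 to 5.

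Leaving out 1 array gave 1 to 5 members and 427 to 1784 probes in the tumour comparison, 0 to 4 and 24 to 1757 for the antibody in tumour-bearing mice, 0 to 2 and 8 to 47 in tumour-free mice, 0 and 13 to 219 between hosts under anti-IL-6R, and 0 to 1 and 4 to 364 for the interaction. A group left with 1 array was assumed to vary like the others. The cause of these shifts was not tested. No paired analysis was possible because the replicate numbers run from 1 to 8 and no 2 groups share one.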
